A study of Mus musculus with 12 samples.

Results

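The 39 genes described here encode the proteins that copy DNA in S phase. They were taken from a list of gene symbols and matched by RefSeq transcript to probes of a mouse Agilent expression array, on which all 39 had at least 1 of 56 probes. Of these, 37 could be tested, among 26405 genes tested in all, because their brightest probe was well above background in enough arrays. Orc1, a subunit of the origin recognition complex, was above background on 1 of 12 arrays, and Ccne2 (cyclin E2) on 0 of 12, so that neither has a usable level here. Levels are log2 processed signals relative to the 75th percentile of each array, so 0 is the brightness of that percentile and a difference of 1 is a doubling. Levels of different genes come from different probes and are not compared with each other.

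Liver RNA came from 12 male mice in 4 groups of 3. Wild-type mice and mice lacking Akp3 (Akp3-/-, the gene of intestinal alkaline phosphatase, an enzyme of the gut brush border) were 7 weeks old and were dosed by mouth once a day for 14 days. The vehicle groups received carboxymethylcellulose sodium salt at 5 g/L, and the other groups received IIAEK, a peptide of 5 amino acids, at 600 mg/kg body weight per day. Food was withheld for the last 8 h in all 4 groups. The strain, the litters and the design of the Akp3 allele were not given in the sources used here.

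DNA replication starts when the origin recognition complex, Cdc6 and Cdt1 load the MCM helicase onto origins in G1. Cdc45, the GINS complex and Mcm10 then turn the loaded helicase into a moving fork, where the polymerases, the sliding clamp PCNA and its loader make the new strands. Most of these genes are transcribed under E2F factors as cells enter S phase, and in the adult liver few hepatocytes are in cycle at a given time, so their transcripts are usually scarce. In bulk liver RNA, fewer cells in cycle and less RNA per cell cannot be told apart.

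E2F words, found in some of these genes, are shown for 3 of the helicase subunits that hold them. The words TTTCCCGC, TTTGGCGC, TTTCGCGC and TTTGCCGC were searched on both strands in RefSeq windows from 250 bases before to 50 bases after each start site (build GRCm38.p6). Of the 32 replication genes with a window, 13 held at least 1 word (40.6%), against 2.6% of the 27025 genes with a window. The 250 bases before the start site of 3 of the genes are given 5′ to 3′ on the gene's strand, with the words in capitals. Mcm6 lies at chr1:128359706-128359955 on the minus strand, Mcm5 at chr8:75109259-75109508 on the plus strand and Mcm7 at chr5:138171884-138172133 on the minus strand.
Mcm6: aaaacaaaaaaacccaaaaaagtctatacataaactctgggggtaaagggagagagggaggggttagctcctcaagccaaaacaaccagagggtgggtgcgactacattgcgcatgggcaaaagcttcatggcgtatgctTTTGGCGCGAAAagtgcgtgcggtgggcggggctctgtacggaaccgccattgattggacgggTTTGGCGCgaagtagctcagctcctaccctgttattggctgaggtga
Mcm5: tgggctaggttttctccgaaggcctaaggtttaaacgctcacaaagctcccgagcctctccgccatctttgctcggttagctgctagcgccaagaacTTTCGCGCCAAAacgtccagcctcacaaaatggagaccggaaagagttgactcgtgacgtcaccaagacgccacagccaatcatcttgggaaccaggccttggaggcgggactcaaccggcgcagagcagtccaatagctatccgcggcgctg
Mcm7: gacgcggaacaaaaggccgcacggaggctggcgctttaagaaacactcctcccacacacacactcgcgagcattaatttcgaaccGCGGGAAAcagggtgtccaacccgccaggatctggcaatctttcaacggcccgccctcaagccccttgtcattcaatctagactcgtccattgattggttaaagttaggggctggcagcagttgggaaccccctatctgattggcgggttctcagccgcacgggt
In Mcm6 and in Mcm5, 2 of the words overlap on opposite strands and form 1 run of capitals. Of the 2 words of Mcm7, 1 lay after the start site, as did both words of Mcm3. Mcm2, Pcna, Rrm2 and E2f1 held none of the 4 words in their windows, which says only that these letters are not there. A match is a description of letters and not a measured binding site.

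Before the results, several arrays stood apart from their groups. The first principal component held 55.3% of the variance and separated 4 vehicle arrays (wild type 2 and 3, Akp3-/- 1 and 3, scores 74.0 to 88.1) from the other 8 (scores -57.2 to -11.3). Wild-type vehicle 1 had the lowest value of all 12 arrays for 14 of the 37 replication genes, and Akp3-/- vehicle 1 for 12. On wild-type vehicle 1, markers of the exocrine pancreas lay 3.72 above their 12-array means at the median, with 11 of 12 above background and the defining factor Ptf1a never above background on any array. On wild-type vehicle 2, which had the highest value for 12 replication genes, markers of the small intestine lay 2.60 above their means, with 11 of 11 measured markers above background. All 12 hepatocyte markers were above background on every array. Replicate 1 of every group was on slide 1 and replicates 2 and 3 were on slide 2. Both Akp3 probes were above background on 0 of 12 arrays, so the liver does not show which mice carry the deletion.

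**Figure D1:**
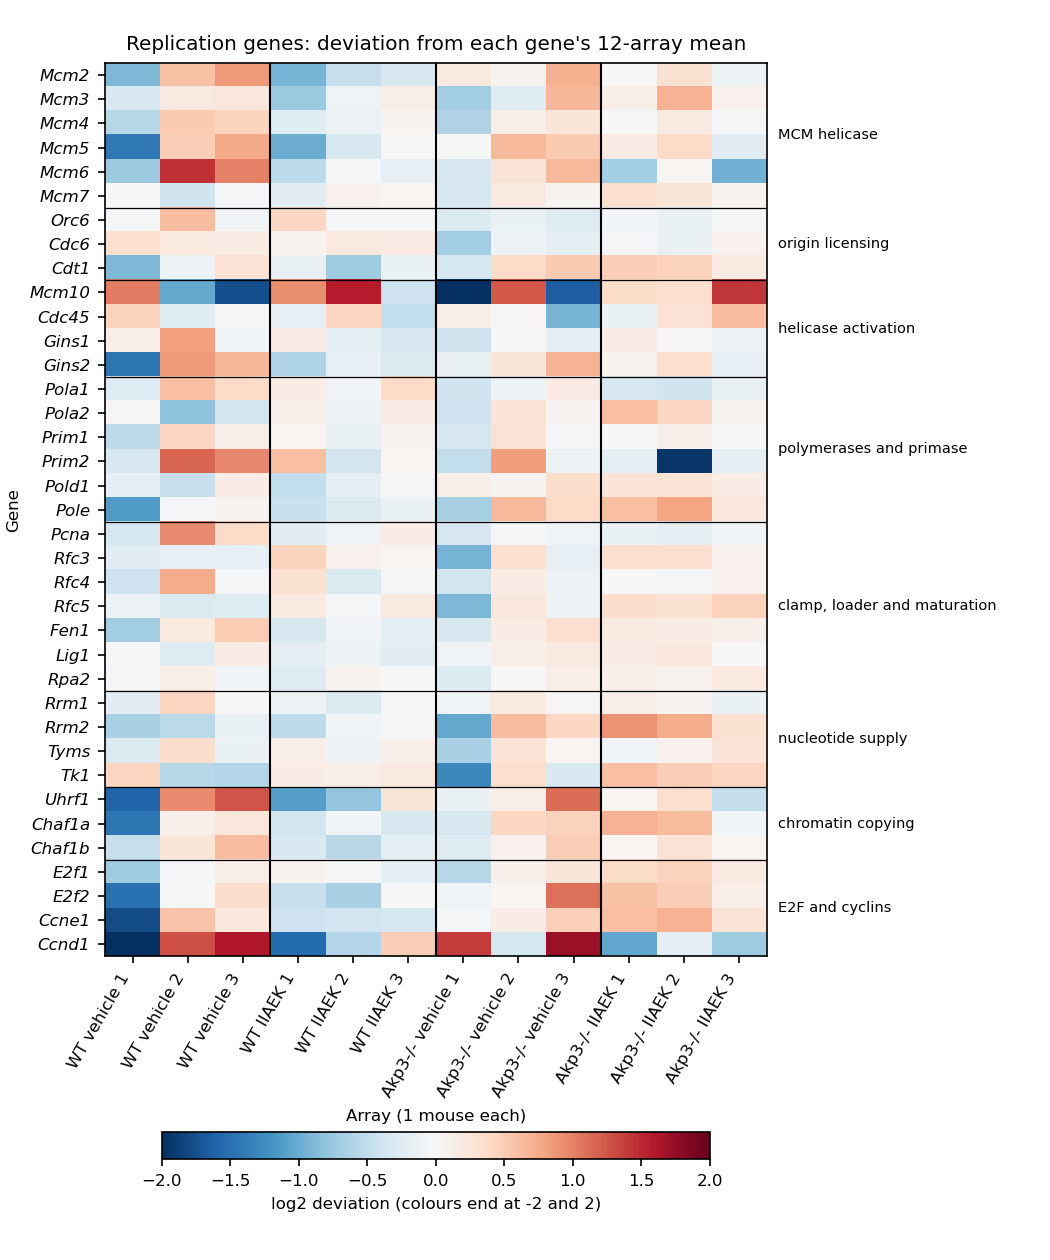
Heat map of the 37 tested replication genes (rows, by role) on the 12 arrays (columns, 1 mouse each), as log2 deviation from each gene's 12-array mean. Wild-type vehicle 1 is the lowest array for 14 genes, Akp3-/- vehicle 1 for 12, and Mcm10 and Ccnd1 deviate in opposite directions on all 12 arrays.

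The first question is whether loss of Akp3 altered replication genes in the liver. In vehicle mice the median change of the 37 genes was -0.02 (Akp3-/- minus wild type), against -0.07 over all genes tested, with 17 higher and 20 lower. None of the 37 passed an adjusted p of 0.05 in limma, and 2 had an unadjusted p under 0.05, both lower in Akp3-/- mice. Over all genes, 0.00379% passed the adjusted threshold and 6.88% the unadjusted one, 2.54% higher and 4.33% lower. The genotypes did not overlap for 2 genes, both lower (5.80% of all genes), and for 0 higher (2.84%). In IIAEK-treated mice the median change was 0.28, against -0.02 over all genes, with 30 of 37 higher in Akp3-/- mice. Again none passed the adjusted threshold (0.00757% of all genes), and 2 of 37 had an unadjusted p under 0.05 (7.88% of all genes), both higher (3.35% of all genes, with 4.53% lower). The 3 Akp3-/- values lay above all 3 wild-type values for 14 of the 37 (12.9% of all genes) and below them for 1, Pola1 (14.9%). Averaged over both treatments, the median was 0.18 (-0.05 over all genes), none passed the adjusted threshold (0.0189% of all genes) and 7 had an unadjusted p under 0.05 (16.5% of all genes), 5 of them higher (6.53%) and 2 lower (9.96%). The p-values set each difference between groups against the spread between mice within the 4 groups, pooled over all 12 mice. In IIAEK mice, 9 of 10 markers of stellate cells and fibroblasts were also higher in Akp3-/- mice, with summed levels of 91.4 to 141 against 82.9 to 102 in wild type. Of 9 tested erythroid markers 6 were lower there. The summed levels of the 11 erythroid markers with a probe were 204 to 251 against 342 to 983. All 6 tested markers of B and plasma cells were higher there (median 0.59), 3 of them without overlap. The summed levels of the 7 such markers above background on any array were 1.09 to 1.51 against 0.724 to 1.12. Their part in these changes was not tested.

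**Figure D2:**
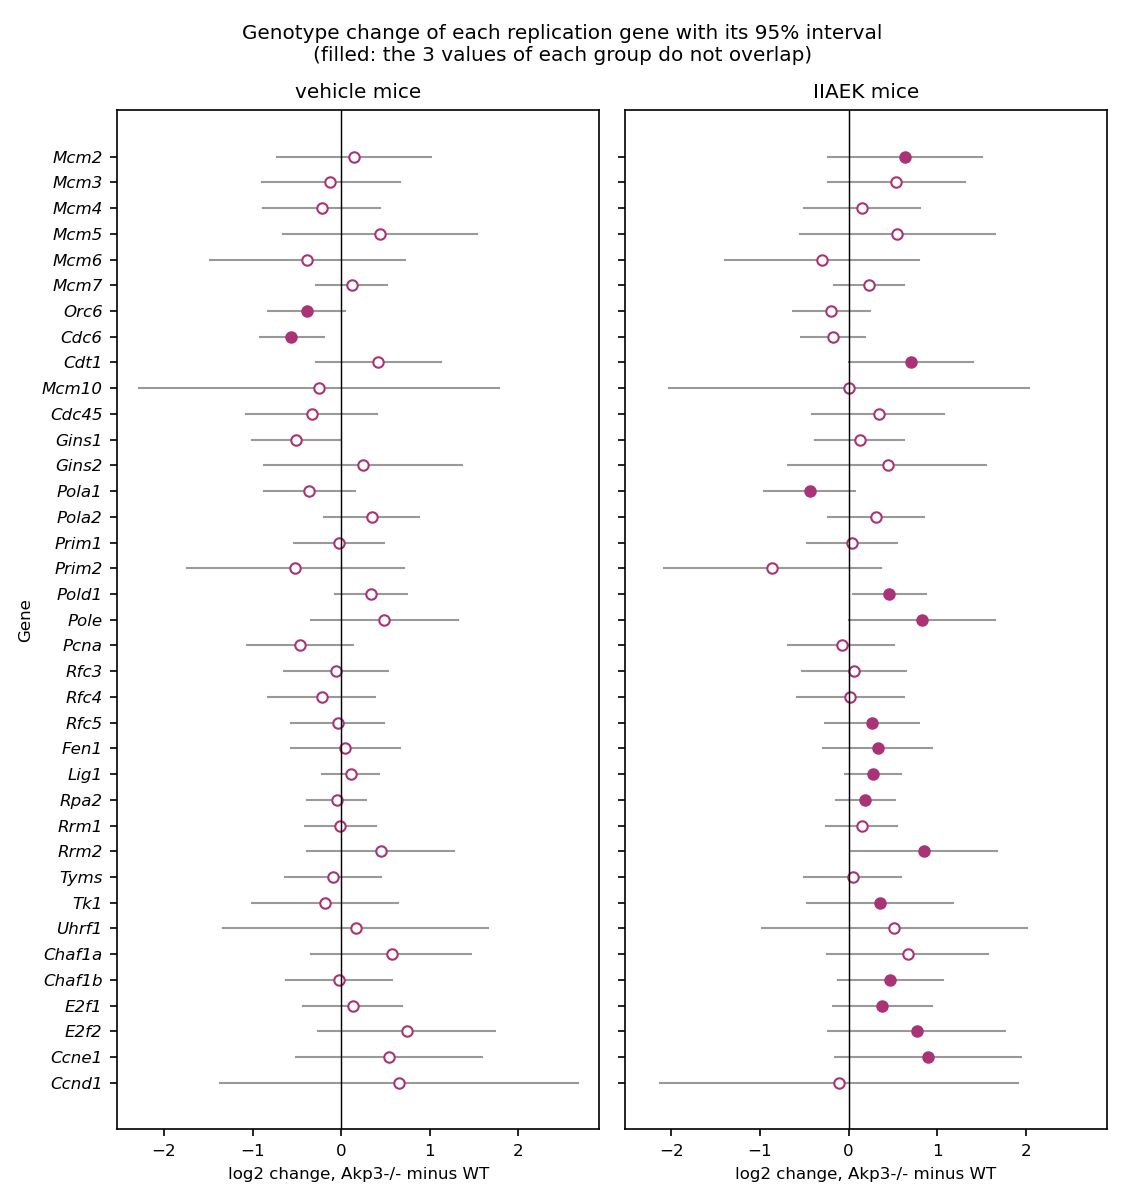
Change of each tested replication gene between genotypes (log2, Akp3-/- minus wild type) in vehicle mice (left) and in IIAEK mice (right), with 95% intervals from limma. Filled points mark genes whose 3 values in each genotype do not overlap: 2 lower in vehicle mice, and 14 higher and 1 lower in IIAEK mice.

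Among the licensing factors, Cdc6, the ATPase that helps load the helicase, had the smallest p of all 37 genes in vehicle mice. Its levels were -2.44, -2.56 and -2.61 in wild-type vehicle mice and -3.46, -2.86 and -2.95 in Akp3-/- vehicle mice. In IIAEK mice they were -2.69, -2.56 and -2.59 in wild type and -2.80, -2.91 and -2.67 in Akp3-/-. The vehicle groups do not overlap and the IIAEK groups do. The change was -0.56 ± 0.17 (SE) in vehicle mice (limma adjusted p = 0.71), -0.18 ± 0.17 in IIAEK mice, and -0.37 ± 0.12 averaged over treatment (adjusted p = 0.239).

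Cdt1, the partner of Cdc6 in loading MCM, was measured in the opposite direction. Its levels were -1.03, -0.24 and 0.16 in wild-type vehicle mice, -0.48, 0.25 and 0.39 in Akp3-/- vehicle mice, -0.28, -0.85 and -0.27 in wild-type IIAEK mice, and 0.35, 0.32 and 0.05 in Akp3-/- IIAEK mice. The 3 Akp3-/- mice given IIAEK were all above the 3 wild-type mice given IIAEK, while the vehicle groups overlap. The change was 0.71 ± 0.32 in IIAEK mice (limma adjusted p = 0.626) and 0.56 ± 0.23 averaged (adjusted p = 0.273). Orc6, the smallest subunit of the origin recognition complex, was 1.01, 1.65 and 0.96 in wild-type vehicle mice and 0.76, 0.90 and 0.77 in Akp3-/- vehicle mice, a change of -0.39 ± 0.20 with no overlap (adjusted p = 0.71). With IIAEK its levels were 1.45, 1.01 and 1.01 in wild type and 0.98, 0.89 and 1.01 in Akp3-/-.

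None of the 6 subunits of the MCM helicase passed the adjusted threshold between genotypes. Their median change was 0.00 in vehicle mice, with 3 higher and 3 lower, and 0.39 in IIAEK mice, with 5 higher and Mcm6 lower. Mcm2 was -3.11, -1.63 and -1.36 in wild-type vehicle mice and -2.02, -2.14 and -1.50 in Akp3-/- vehicle mice. With IIAEK it was -3.15, -2.68 and -2.54 in wild type and -2.22, -1.91 and -2.32 in Akp3-/-. The IIAEK groups do not overlap, and the change there was 0.64 ± 0.39 (limma adjusted p = 0.647).

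Mcm5 and Mcm6 varied widely within the wild-type vehicle group. Mcm5 was -2.99, -1.07 and -0.81 in wild-type vehicle mice, -1.58, -0.92 and -1.04 in Akp3-/- vehicle mice, -2.56, -1.88 and -1.58 in wild-type IIAEK mice, and -1.41, -1.17 and -1.79 in Akp3-/- IIAEK mice. Its genotype change was 0.50 ± 0.35 averaged over treatment (adjusted p = 0.473). Mcm6 was 0.02, 2.20 and 1.75 in wild-type vehicle mice, 0.41, 1.01 and 1.40 in Akp3-/- vehicle mice, 0.23, 0.72 and 0.59 in wild-type IIAEK mice, and 0.06, 0.78 and -0.21 in Akp3-/- IIAEK mice. For both genes wild-type vehicle 1 lies far below the other wild-type vehicle mice, and all genotype groups overlap.

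Mcm3, Mcm4 and Mcm7 had overlapping genotype groups as well. Mcm3 was -0.21, 0.28 and 0.32 in wild-type vehicle mice, -0.59, -0.14 and 0.77 in Akp3-/- vehicle mice, -0.65, 0.02 and 0.21 in wild-type IIAEK mice, and 0.21, 0.79 and 0.19 in Akp3-/- IIAEK mice. Mcm4 was -0.26, 0.83 and 0.75, then -0.30, 0.42 and 0.55, then 0.07, 0.19 and 0.37, then 0.31, 0.49 and 0.28 in the same order of groups. Mcm7 was 1.71, 1.31 and 1.68, then 1.39, 1.89 and 1.77, then 1.50, 1.80 and 1.76, then 2.03, 1.96 and 1.77. Averaged genotype changes were 0.21 ± 0.25 for Mcm3, -0.03 ± 0.21 for Mcm4 and 0.18 ± 0.13 for Mcm7.

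Of the factors that start the fork, the GINS subunit Gins1 was lower in Akp3-/- vehicle mice at an unadjusted threshold. Its levels were -0.51, 0.20 and -0.68 in wild-type vehicle mice and -1.03, -0.66 and -0.82 in Akp3-/- vehicle mice, and -0.46, -0.82 and -0.93 against -0.48, -0.60 and -0.74 with IIAEK. The groups overlap in both treatments, and the vehicle change of -0.51 ± 0.23 (limma adjusted p = 0.71) ranged from -0.68 to -0.25 when 1 array at a time was left out. Cdc45, which rides with the helicase, was dim: -4.25, -4.96 and -4.71, then -4.58, -4.69 and -5.64 in the vehicle groups, and -4.87, -4.30 and -5.20, then -4.84, -4.43 and -4.09 in the IIAEK groups, wild type first. Its second probe gave the opposite sign for genotype in vehicle mice (0.70 against -0.33) and in IIAEK mice (-0.28 against 0.34). The signs also differed for IIAEK in each genotype and for the interaction. They did not differ for IIAEK averaged over genotype (0.48 against 0.18). For genotype averaged over treatment the second probe gave 0.21 and the probe used 0.00. The direction of Cdc45 thus depends on the probe in most comparisons.

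The catalytic subunit genes of both replicative polymerases were measured higher in Akp3-/- mice, and that of the priming polymerase lower. Other subunit genes of polymerases delta and epsilon were not among the 37. Pold1, the catalytic subunit of polymerase delta, was -1.06, -1.35 and -0.73 in wild-type vehicle mice, -0.77, -0.83 and -0.53 in Akp3-/- vehicle mice, -1.38, -1.07 and -0.90 in wild-type IIAEK mice, and -0.62, -0.61 and -0.73 in Akp3-/- IIAEK mice. Only the IIAEK groups do not overlap. The change was 0.46 ± 0.19 in IIAEK mice (limma adjusted p = 0.625) and 0.40 ± 0.13 averaged (adjusted p = 0.242). Pole, the catalytic subunit of polymerase epsilon, differed by 0.66 ± 0.26 averaged (adjusted p = 0.273). Pola1, the catalytic subunit of the priming polymerase alpha, differed by -0.40 ± 0.16 averaged (adjusted p = 0.279). Its partner Pola2 differed by 0.33 ± 0.17, in the other direction. The primase subunit gene Prim2 had the lowest averaged change of the 37, -0.69 ± 0.39 (limma adjusted p = 0.382). Its genotype groups overlap under both treatments. The other primase gene, Prim1, differed by 0.01 ± 0.16.

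Of the 7 genes of clamp, loader and strand maturation, the loader subunit Rfc5, the flap nuclease gene Fen1, the ligase gene Lig1 and Rpa2, a subunit of the single-strand binding protein, did not overlap between genotypes in IIAEK mice, all higher in Akp3-/-. Their changes there were 0.26 ± 0.24, 0.33 ± 0.28, 0.28 ± 0.14 and 0.19 ± 0.15, with limma adjusted p-values of 0.629 to 0.743. Pcna, the sliding clamp, was 2.69, 3.98 and 3.42 in wild-type vehicle mice, 2.70, 3.02 and 2.97 in Akp3-/- vehicle mice, 2.82, 2.97 and 3.19 in wild-type IIAEK mice, and 2.91, 2.85 and 2.98 in Akp3-/- IIAEK mice. The 2 highest values are both wild-type vehicle mice, and the change in vehicle mice was -0.46 ± 0.27 (limma adjusted p = 0.71). Across the 7 genes, 6 were higher in Akp3-/- IIAEK mice (median 0.19) and 2 in Akp3-/- vehicle mice (median -0.05).

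Ribonucleotide reductase makes the deoxynucleotides for replication, and its S-phase subunit Rrm2 was higher in Akp3-/- mice given IIAEK. Its levels were 0.02, 0.13 and 0.52 in wild-type vehicle mice, -0.35, 1.29 and 1.08 in Akp3-/- vehicle mice, 0.14, 0.61 and 0.64 in wild-type IIAEK mice, and 1.56, 1.41 and 0.97 in Akp3-/- IIAEK mice. Akp3-/- vehicle 1 was the lowest of all 12 and the other 5 Akp3-/- mice were the highest. The change was 0.85 ± 0.38 in IIAEK mice (limma adjusted p = 0.626) and 0.65 ± 0.27 averaged (adjusted p = 0.277). The constitutive subunit Rrm1 differed by 0.07 ± 0.13 and thymidylate synthase (Tyms) by -0.02 ± 0.17.

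The E2F factors and cyclins had a median averaged genotype change of 0.50 over 4 tested genes. E2f1, an activator of S-phase genes, was -2.44, -1.78 and -1.60 in wild-type vehicle mice, -2.31, -1.64 and -1.49 in Akp3-/- vehicle mice, -1.67, -1.74 and -1.93 in wild-type IIAEK mice, and -1.37, -1.29 and -1.55 in Akp3-/- IIAEK mice. The IIAEK groups do not overlap, with a change of 0.38 ± 0.25 (limma adjusted p = 0.665). E2f2 differed by 0.75 ± 0.32 averaged (adjusted p = 0.287) and cyclin E1 (Ccne1) by 0.72 ± 0.34 (adjusted p = 0.31). Without the 4 vehicle arrays high on the first component, the averaged genotype changes were 1.42 for Ccne1 and 1.30 for Pole. That setting leaves wild-type vehicle 1 and Akp3-/- vehicle 2 alone in their groups.

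Cyclin D1 (Ccnd1), which drives the exit from G1, differed widely within the vehicle groups. It was -0.01, 3.36 and 3.67 in wild-type vehicle mice, 3.48, 1.72 and 3.80 in Akp3-/- vehicle mice, 0.54, 1.49 and 2.57 in wild-type IIAEK mice, and 1.04, 1.88 and 1.37 in Akp3-/- IIAEK mice. The 4 highest values are those of the 4 vehicle arrays high on the first component. Mcm10, a helicase activation factor named here after its values were seen, had its 4 lowest values on the same arrays. It was 3.98, 1.92 and 1.18 in wild-type vehicle mice, 0.89, 4.16 and 1.28 in Akp3-/- vehicle mice, 3.87, 4.51 and 2.52 in wild-type IIAEK mice, and 3.31, 3.25 and 4.36 in Akp3-/- IIAEK mice. The part of those arrays' other differences in these values was not tested.

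**Figure D3:**
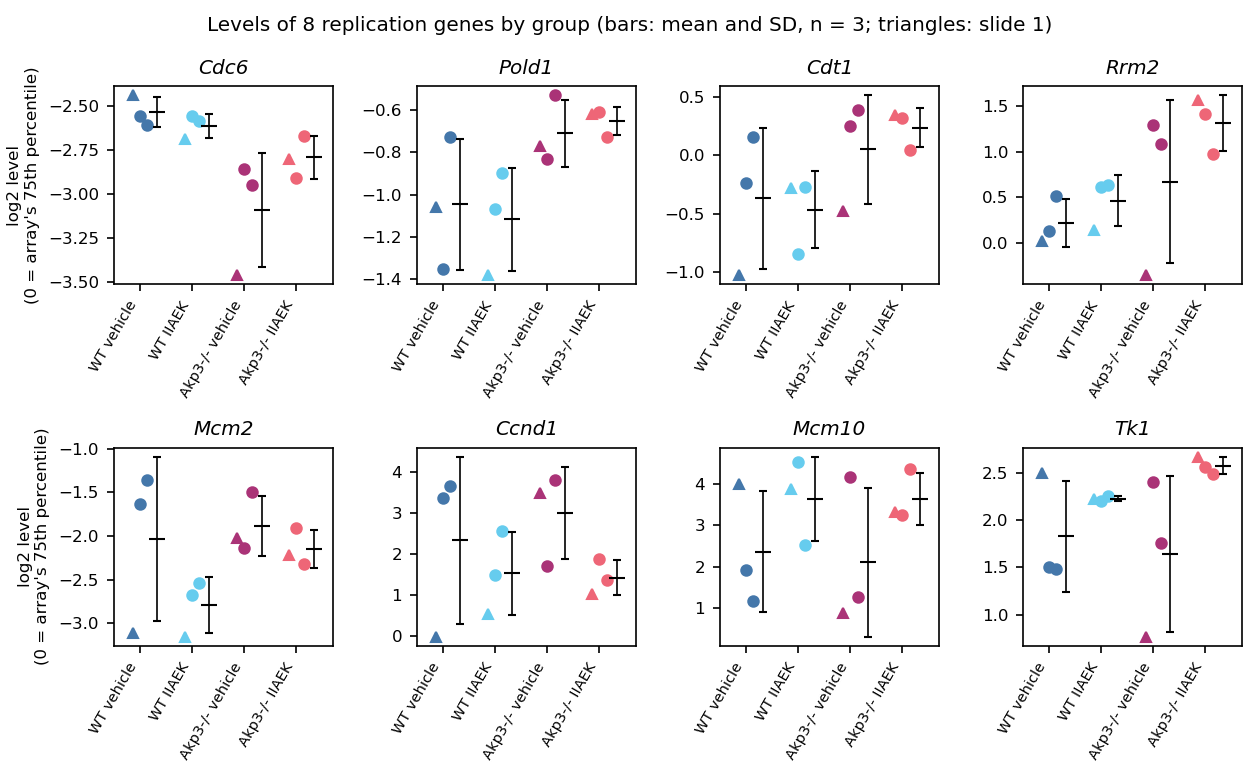
Log2 levels (0 is the array's 75th percentile) of 8 replication genes in the 4 groups, 1 point per mouse, with mean and SD (n = 3) and triangles for slide 1. Cdc6 does not overlap between the vehicle genotypes, Pold1, Cdt1, Rrm2 and Mcm2 do not overlap between the IIAEK genotypes, and Ccnd1 and Mcm10 split the vehicle mice in opposite directions.

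The second question is whether IIAEK altered these genes. In wild-type mice the median change was -0.09 (IIAEK minus vehicle), against 0.03 over all genes. None of the 37 passed the adjusted threshold in limma (0.00379% of all genes) and 0 had an unadjusted p under 0.05 (12.6% of all genes, 5.75% higher and 6.81% lower). The treatments did not overlap for 2 genes, both higher (7.08% of all genes), and for 0 lower (5.85%). The smallest p-values belonged to Mcm2, with a change of -0.75 ± 0.39 (adjusted p = 0.413), Chaf1b, with -0.48 ± 0.27 (adjusted p = 0.427), and Pola2, with 0.44 ± 0.24 (adjusted p = 0.428). Chaf1b, a subunit of the factor that places histones behind the fork, was -0.90, -0.19 and 0.18 in wild-type vehicle mice, -0.74, -0.99 and -0.62 in wild-type IIAEK mice, -0.69, -0.34 and 0.06 in Akp3-/- vehicle mice and -0.40, -0.15 and -0.40 in Akp3-/- IIAEK mice. Pola2 was -3.85, -4.68 and -4.23, then -3.77, -3.97 and -3.70, then -4.28, -3.62 and -3.81, then -3.27, -3.45 and -3.81 in the same order. Wild-type vehicle 1 was the lowest wild-type vehicle mouse for Mcm2 and Chaf1b and the highest for Pola2.

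This comparison depended on which vehicle arrays were kept. Without the 4 vehicle arrays high on the first component, wild-type vehicle 1 is alone in its group. The median change was then 0.40, against -0.02 over all genes, with 28 of 37 higher with IIAEK. Mcm2 (0.32), Mcm5 (0.98), Mcm6 (0.49), Pcna (0.31) and Chaf1b (0.11) were then higher with IIAEK in limma, the lone mouse being assumed to vary like the other groups. Without wild-type vehicle 1, 8 of the 37 genes passed, all lower with IIAEK, where 14.8% of all genes passed and 8.82% were lower. They were Mcm2 (-1.29, adjusted p = 0.031), Mcm5 (-1.07, adjusted p = 0.0472), Mcm6 (-1.46, adjusted p = 0.0328), Pcna (-0.70, adjusted p = 0.0436), Gins2 (-1.12, adjusted p = 0.0322), Uhrf1 (-1.65, adjusted p = 0.041), Chaf1b (-0.78, adjusted p = 0.0482) and Ccne1 (-0.77, adjusted p = 0.0361), and the median change was -0.34. Uhrf1 carries DNA methylation through replication. The summed level of the 11 pancreas markers above background on any array was 26.6 on wild-type vehicle 1. It was 9.28 to 17.0 on the other 2 wild-type vehicle arrays, against 12.2 to 14.6 with IIAEK. The summed level of the 11 measured intestine markers was 92.2 to 112 in wild-type vehicle mice and 137 to 141 with IIAEK, but of the 8 tested 5 were lower with IIAEK, none of those 5 overlapping, and the median change was -2.73. With vehicle 8 to 11 of the 11 were above background, and with IIAEK 5 to 8. Their part in the result was not tested.

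In Akp3-/- mice the median change with IIAEK was 0.15, against 0.05 over all genes, with 28 of 37 higher. None passed the adjusted threshold (0% of all genes), and 2 had an unadjusted p under 0.05 (6.46% of all genes), both higher (4.01%, with 2.46% lower). The treatments did not overlap for 2 genes, both higher (9.52% of all genes), and for 0 lower (5.91%). Rfc5, a subunit of the clamp loader, was 0.66, 1.80 and 1.46 in Akp3-/- vehicle mice and 1.92, 1.87 and 2.02 in Akp3-/- IIAEK mice, and 1.45, 1.28 and 1.31 against 1.75, 1.53 and 1.74 in wild type. The IIAEK values lie above the vehicle values in both genotypes. The change was 0.63 ± 0.24 in Akp3-/- mice (limma adjusted p = 0.656) and 0.33 ± 0.24 in wild type. Thymidine kinase (Tk1), which salvages thymidine, was 0.77, 2.40 and 1.76 in Akp3-/- vehicle mice and 2.67, 2.56 and 2.49 in Akp3-/- IIAEK mice, a change of 0.93 ± 0.37 (adjusted p = 0.656). In wild type it was 2.50, 1.50 and 1.48 with vehicle and 2.22, 2.20 and 2.25 with IIAEK. Rfc3, another loader subunit, was -0.87, 0.40 and -0.10 against 0.37, 0.38 and 0.15 in Akp3-/- mice, and -0.16, -0.11 and -0.11 against 0.51, 0.14 and 0.09 in wild type. Akp3-/- vehicle 1 was the lowest of 12 for all 3 of these genes. Of 9 tested erythroid markers 7 were lower with IIAEK in Akp3-/- mice and 2 higher (median -1.32). Of the 7, 6 did not overlap. The summed level of the 11 erythroid markers with a probe was 378 to 770 with vehicle and 204 to 251 with IIAEK. Their part in these changes was not tested.

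Averaged over genotype, 4 of 37 genes had an unadjusted p under 0.05 (22.8% of all genes), all higher with IIAEK (11.8% of all genes): Rfc5 (0.48 ± 0.17), Tk1 (0.66 ± 0.26), Pola2 (0.42 ± 0.17) and Rfc3 (0.43 ± 0.19), with limma adjusted p-values of 0.185 to 0.211. None of the 37 passed the adjusted threshold, as did 0% of all genes. Without wild-type vehicle 1, 8 passed, 6 lower and 2 higher (24.9% of all genes passed). Without Akp3-/- vehicle 2, 4 passed, all higher (10.4%): Mcm10, Tk1, Rfc3 and Rfc5. Ccnd1 differed by -1.19 ± 0.65 (adjusted p = 0.282) with all arrays and by -1.78 (adjusted p = 0.0219) without wild-type vehicle 1. Within slide 1, with 1 mouse per group, the median of the 37 genes was 0.44, and within slide 2 it was -0.25. The slide 1 vehicle mice were wild-type vehicle 1 and Akp3-/- vehicle 1, the lowest arrays for 14 and 12 of the 37 genes. Slide and mouse therefore cannot be told apart here. Of 12 Kupffer cell and macrophage markers 11 were lower with IIAEK in each genotype, with summed levels of 119 to 345 against at most 205 in wild type and 121 to 298 against 93.3 to 165 in Akp3-/- mice. Averaged over genotype, 7 of 7 tested cholangiocyte markers (median -0.91), 10 of 10 stellate cell and fibroblast markers (median -0.61) and 5 of 6 tested neutrophil and myeloid markers (median -1.13) were also lower with IIAEK. Summed levels of these markers were high on the 4 vehicle arrays high on the first component. Wild-type vehicle 1 and Akp3-/- vehicle 2 lay in or near the range with IIAEK. Their cholangiocyte sums were 6.37 and 7.93, against 20.6 to 44.7 on those 4 arrays and 7.05 to 8.55 with IIAEK. Kupffer and macrophage sums were 119 and 121, against 271 to 345 and 93.3 to 205. Stellate and fibroblast sums were 90.5 and 108, against 180 to 236 and 82.9 to 141. The part of these markers in the result was not tested.

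The third question is whether the response to IIAEK depended on genotype. The median interaction, the IIAEK change in Akp3-/- minus that in wild type, was 0.24 against 0.02 over all genes, with 33 of 37 above 0. None passed the adjusted threshold (0% of all genes) and 0 had an unadjusted p under 0.05 (1.61% of all genes). The smallest p-values were those of Gins1 (0.64 ± 0.32), Cdc6 (0.38 ± 0.24) and Cdc45 (0.67 ± 0.48), all with a limma adjusted p of 1. The other probe of Cdc45 gave -0.98. The median was 0.14 within slide 1 and 0.22 within slide 2. It was 0.50 without wild-type vehicle 1, 0.02 without Akp3-/- vehicle 1 and -0.43 without the 4 vehicle arrays high on the first component.

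A list of 56 other replication and S-phase genes, of which 55 were tested, had none that passed in any of the 7 comparisons. Averaged over treatment, 5 were higher and 6 lower in Akp3-/- mice at an unadjusted p under 0.05, 20.0% of the list against 16.5% of all genes, and the median was -0.03. The smallest p-values were those of the helicase gene Recql4 (0.49 ± 0.13, adjusted p = 0.229) and of Rrm2b (-0.53 ± 0.15, adjusted p = 0.23), which encodes a reductase subunit used outside S phase. In vehicle mice they were Rrm2b (-0.68 ± 0.22) and the helicase gene Blm (-0.42 ± 0.17), and in IIAEK mice Recql4 (0.88 ± 0.19) and Rpa1 (0.50 ± 0.16), a subunit of the single-strand binding protein. For IIAEK in wild type and averaged over genotype they were the repair gene Brca1 (-1.34 ± 0.39 and -1.09 ± 0.27) and the origin recognition gene Orc5 (0.58 ± 0.19 and 0.47 ± 0.14). In Akp3-/- mice they were Recql4 (0.48 ± 0.19) and the mismatch repair gene Msh6 (0.48 ± 0.21), and in the interaction Recql4 (0.77 ± 0.27) and Rpa1 (0.35 ± 0.23).

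Of 34 regulators of the G1/S transition, all tested, none passed in any of the 7 comparisons. Averaged over treatment, 4 were higher in Akp3-/- mice at an unadjusted p under 0.05 and 0 lower, 11.8% of the list against 16.5% of all genes. The smallest p-values were those of cyclin A2 (Ccna2, 1.42 ± 0.43, limma adjusted p = 0.233) and the CDK inhibitor gene Cdkn2d (0.40 ± 0.14). In vehicle mice the smallest p-values were those of Ccna2 (1.64 ± 0.61) and Trp53 (0.48 ± 0.19), and in IIAEK mice those of the E2F partner gene Tfdp2 (0.38 ± 0.15) and Cdkn2d (0.40 ± 0.19). For IIAEK they were E2f8 (2.22 ± 0.83) and Cdkn2d (0.47 ± 0.19) in wild type, Tfdp2 (0.50 ± 0.15) and Myc (-1.80 ± 0.63) in Akp3-/-, and Myc (-1.62 ± 0.45) and Tfdp2 (0.36 ± 0.10) averaged. In the interaction they were the CDK inhibitor genes Cdkn1c (0.53 ± 0.32) and Cdkn1a (-0.96 ± 0.68).

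Genes of mitosis, the phase after replication, were measured higher in Akp3-/- mice by more than the replication genes. All 24 were higher in Akp3-/- mice under both treatments, with a median of 1.38 in vehicle mice, 1.24 in IIAEK mice and 1.33 averaged. None of the 24 passed the adjusted threshold, and averaged over treatment 21 had an unadjusted p under 0.05, all higher, where 6.53% of all genes did so. In IIAEK mice the genotypes did not overlap for 22 of the 24, all higher (12.9% of all genes), and in vehicle mice for 3 (2.84%). The mitotic kinase gene Plk1 was -3.30, -1.75 and -0.42 in wild-type vehicle mice, -0.35, 0.79 and 0.74 in Akp3-/- vehicle mice, -2.28, -0.84 and -1.55 in wild-type IIAEK mice, and 0.28, 0.43 and -0.37 in Akp3-/- IIAEK mice. Every Akp3-/- mouse was above every wild-type mouse. Its averaged change was 1.94 ± 0.45 (limma adjusted p = 0.225), and that of Cdc20, the activator of the anaphase-promoting complex, was 2.35 ± 0.53 (adjusted p = 0.219). In vehicle mice the same pair had the smallest p-values (Plk1 2.21 ± 0.64, Cdc20 2.56 ± 0.75), and in IIAEK mice Cdc20 (2.15 ± 0.75) and Racgap1 (1.32 ± 0.48), a cytokinesis gene. No mitosis gene had an unadjusted p under 0.05 for IIAEK or for the interaction, where none of the 24 passed in limma. The difference between the mitosis list and the replication genes was not tested.

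Wild-type vehicle 1 was also the lowest array for the mitosis genes, at a median deviation of -2.46 from their means. Without it all 24 mitosis genes were still higher in Akp3-/- mice averaged over treatment, 21 at an unadjusted p under 0.05, and the median of the replication genes was 0.08. In vehicle mice the mitosis median was 0.76 without it, against 1.38 with it, all 24 remaining higher. At an unadjusted p under 0.05 in limma there were 7 higher genes in place of 16. With all arrays 2.54% of all genes were higher at that threshold, and the share without wild-type vehicle 1 was not computed. On slide 2 alone the mitosis median was 1.09 and the replication median 0.10. Without the 4 vehicle arrays high on the first component, only wild-type vehicle 1 and Akp3-/- vehicle 2 remained in the vehicle groups. The averaged mitosis median was then 2.33 and the replication median 0.31. In that setting the wild-type vehicle group is wild-type vehicle 1 alone, the lowest array for the mitosis genes.

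**Figure D4:**
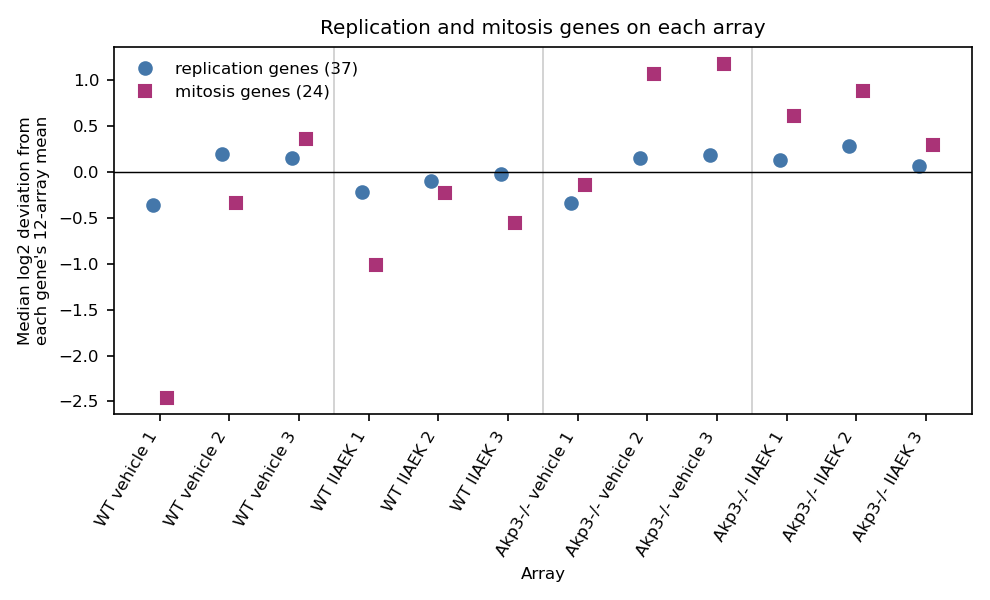
Median log2 deviation from each gene's 12-array mean on each array, for the 37 replication genes (circles) and the 24 mitosis genes (squares). The mitosis genes span -2.46 to 1.18 and the replication genes -0.36 to 0.28, and 5 of the 6 Akp3-/- arrays lie above 0 for both lists. Wild-type vehicle 3 also lies above 0 for both (0.15 for replication, 0.36 for mitosis), and wild-type vehicle 2 for the replication genes only (0.20).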

How the data were processed

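Liver RNA of 12 mice was measured on 1-colour (Cy3) Agilent arrays, 1 per mouse. The authors deposited scanner files, which per the file headers come from Agilent Feature Extraction 10.7.3.1 and give processed signal intensity, already background-subtracted, per spot; their precision is limited by the number of arrays. The deposited series table holds log2 values of the same arrays which, against scanner values centred per gene, correlated at 0.9997 to 0.9999 (array medians -0.154 to 0.172), and it was used as an alternative only. Here control spots and outlier spots were left out, log2 intensity was centred on each array's 75th percentile, spots of a probe were averaged, and the brightest probe by 12-array mean stood for a gene. Of 56605 probes, 32994 were named through RefSeq transcripts. No probe was saturated.

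Genes entered the test if 1 or more groups had the probe well above background on all arrays. limma 3.58.1 (R 4.3.3; lmFit, eBayes) was fitted to all 4 groups and 26405 genes, with 8 residual and 2.70 prior degrees of freedom, for 7 comparisons; a gene passed at a Benjamini-Hochberg adjusted p of 0.05 over all genes. The procedure was tested on simulated data. The labels state no pairing of mice by replicate number, and none was used in the main fit. The 39 genes and the other lists were chosen with earlier results of these data known. Values per mouse are given for the 3 genes with the smallest p in each comparison and for 10 central genes; of each other list the 2 genes with the smallest p are named. The treatment is given as 14 days in the titles; another label gives weeks. Alternatives covered background correction, normalization, probe filter, probe choice, slide, replicate block, array weights and leaving out each array; leaving out the 4 vehicle arrays, or wild-type vehicle 1 and 2 together, was chosen after seeing the data.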

Additional observations from a re-analysis of the deposited data

How the results depend on the processing

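The 60 results were recomputed under up to 26 alternatives. The count of replication genes that passed stayed at 0 in both single-treatment genotype comparisons, for IIAEK in Akp3-/- mice and for the interaction. For IIAEK in wild type it ranged from 0 to 8 and averaged over genotype from 0 to 8 when 1 array was left out, and it was 7 with array weights for the latter (27.7% of all genes). For genotype averaged over treatment it was 0 when 1 array was left out. It changed only without the 4 vehicle arrays high on the first component. That setting leaves wild-type vehicle 1 and Akp3-/- vehicle 2 alone in their groups. When 1 array was left out, the median change ranged from -0.22 to 0.23 for genotype in vehicle mice, from 0.26 to 0.31 for genotype in IIAEK mice, from 0.08 to 0.25 for genotype averaged, from -0.34 to -0.01 for IIAEK in wild type, from -0.02 to 0.24 for IIAEK in Akp3-/- mice, from -0.11 to 0.10 for IIAEK averaged, and from 0.02 to 0.50 for the interaction. On slide 2 alone it was -0.34 for IIAEK in wild type and -0.25 for IIAEK averaged, and with array weights it was 0.48 for the interaction. Without the 4 vehicle arrays it was 0.56 for genotype in vehicle mice, 0.40 for IIAEK in wild type and -0.43 for the interaction.

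Of 1175 alternative values for named genes, 18 changed sign. For genotype in vehicle mice Ccnd1 was -0.76 on slide 2 alone, from -0.52 (without wild-type vehicle 1) to 1.32 when 1 array was left out, and -0.68 without wild-type vehicle 1 and 2. Without the 4 vehicle arrays Pcna was 0.34 in that comparison, and Mcm6 was 0.34 and Pcna 0.13 for genotype averaged. In the same setting IIAEK in wild type gave Mcm2 0.32, Chaf1b 0.11, Ccnd1 1.54, Pcna 0.31, Mcm5 0.98 and Mcm6 0.49, IIAEK in Akp3-/- mice gave Rfc3 -0.10, and IIAEK averaged gave Tk1 -0.05, Ccnd1 0.62 and Mcm10 -0.43. For IIAEK in wild type, Mcm5 ranged from -1.07 to 0.02 (without wild-type vehicle 3) when 1 array was left out. With the mean over a gene's probes, Cdc45 was -0.15 for the interaction. The cause of these shifts was not tested.

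The replicate numbers were tried as a pairing. Of 18 same-numbered pairs 8 correlated above 0.1, and 6 of 12 arrays correlated best with their own number. With the replicate block no replication gene passed in any comparison, and the median was -0.02 for genotype in vehicle mice, 0.28 for genotype in IIAEK mice and 0.24 for the interaction. Signal near background limits Cdc45, Orc1 and Ccne2.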
